A study of Mus musculus with 15 samples.

Results

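The genes described here are 46 that encode the machinery of DNA replication, from the licensing of origins to the synthesis of the new strands, together with the suppliers of deoxynucleotides and the E2F activators. They were chosen as a named list, with earlier results of these data known. Each gene was read from probe sets annotated to its symbol and no other, taking the brightest by its mean on all 15 arrays. All 46 were found among 18193 genes on the arrays. Of the 46, 40 reached a mean log2 signal of at least 5 in one group or more and were tested, among 9044 such genes in all. A log2 signal is the binary logarithm of the fluorescence of a probe set, so a difference of 1 is a 2-fold difference.

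Gene expression had been measured on Affymetrix mouse arrays in spleen lymphocytes of B6x129 mice, in 5 groups of 3 arrays each. T cells had been treated with 7.5 ug/ml of concanavalin A (ConA), a plant lectin that activates T cells, and were profiled at 0, 4 and 14 h. B cells had been treated with 25 ug/ml of lipopolysaccharide (LPS), a bacterial cell wall component that activates B cells, and were profiled at 4 h, with B cells at 0 h as their baseline. The labels describe the 0 h B cells as resting, give no age or sex of the mice, and leave unsaid if replicates were different mice or different cultures, so p-values here measure only the spread between arrays. No unstimulated culture was among the samples analysed here, so stimulus and time in culture cannot be told apart. In each sample 100 ng of total RNA was labelled, and a change in total RNA per cell is not visible in such data.

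Before S phase, the origin recognition complex and the loading factors Cdc6 and Cdt1 place the MCM2-7 helicase on DNA, a step called licensing, which geminin (Gmnn) blocks by binding Cdt1. The kinase Cdc7 with its subunit Dbf4, together with Cdc45 and the GINS complex, then turns the loaded helicase into a moving one, and polymerases, primase, the PCNA clamp and its loader copy the strands. Most resting lymphocytes in the spleen are out of the cell cycle, and many replication genes are transcribed under the control of E2F factors as cells approach S phase.

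The labelled cell types were checked against marker lists. The 9 T cell markers on the arrays summed to 39156 to 53257 (linear signal) on T cell arrays and to 87 to 120 on B cell arrays. The 9 B cell markers summed to 32600 to 105064 on B cell arrays and to 309 to 558 on T cell arrays, where Cd79a and Pax5 lay at 2.34 and 2.24 (log2), at or next to the floor of 2.24. RNA of genes that mark red blood cell precursors (erythroid markers) was also present. The 14 on the arrays summed to 9872 to 10354 in B cells with LPS and 23259 to 23686 in untreated B cells. On T cell arrays of 0, 4 and 14 h they summed to 6619 to 6772, 648 to 679 and 342 to 381. On T cell arrays the late erythroid genes Alas2 and Trim10 stayed at 2.24 and 2.30. The brightest of the list in T cells at 0 h were Car1 (12.18) and Car2 (9.91), which weigh most in the sum. Hemgn, Gata1, Klf1, Aqp1 and Ermap had means of 6.26 to 8.13 there, and Slc4a1, Kel, Rhd, Cldn13 and Epor 3.71 to 4.69. On T 0 h replicate 2 and T ConA 4 h replicate 1 the dap spike-in control, an RNA added before labelling, was weak at its 5' end, with a 3' minus 5' difference of 4.59 and 5.94 (log2), against 1.82 to 2.67 on the other T cell arrays and 0.90 to 1.44 on B cell arrays. Without both arrays the calls among the 40 tested members came to 32 rises and 0 falls between 4 h and 14 h of ConA.

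The following promoter windows show the E2F words of 6 members whose levels are described below: 3 helicase subunits, a loading factor and Uhrf1, which rose between 4 h and 14 h of ConA, and E2f2, which did not pass the test there. Each runs from 250 bases before to 50 bases after an annotated transcription start, 5' to 3' on the strand of the gene, from RefSeq on GRCm38.p6, with capitals marking E2F words.
Mcm3, chr1:20820263-20820562, minus strand: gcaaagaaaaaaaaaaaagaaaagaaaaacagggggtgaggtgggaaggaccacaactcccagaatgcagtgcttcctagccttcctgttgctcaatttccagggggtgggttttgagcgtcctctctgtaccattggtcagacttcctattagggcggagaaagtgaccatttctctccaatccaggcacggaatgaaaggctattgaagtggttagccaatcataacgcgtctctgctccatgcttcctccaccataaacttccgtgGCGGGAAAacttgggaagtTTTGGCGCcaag
Mcm5, chr8:75109259-75109558, plus strand: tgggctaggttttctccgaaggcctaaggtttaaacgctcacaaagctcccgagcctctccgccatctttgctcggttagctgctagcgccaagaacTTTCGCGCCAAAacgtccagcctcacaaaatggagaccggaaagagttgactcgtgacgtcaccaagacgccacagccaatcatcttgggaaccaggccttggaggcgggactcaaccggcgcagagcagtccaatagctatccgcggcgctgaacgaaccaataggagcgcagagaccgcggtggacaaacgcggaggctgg
Mcm6, chr1:128359656-128359955, minus strand: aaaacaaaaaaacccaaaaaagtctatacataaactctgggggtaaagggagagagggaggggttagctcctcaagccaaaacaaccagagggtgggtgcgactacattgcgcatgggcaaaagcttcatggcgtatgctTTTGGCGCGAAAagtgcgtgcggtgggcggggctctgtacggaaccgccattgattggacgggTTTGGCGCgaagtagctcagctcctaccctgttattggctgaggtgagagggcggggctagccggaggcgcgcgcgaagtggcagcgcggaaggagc
Cdc6, chr11:98907901-98908200, plus strand: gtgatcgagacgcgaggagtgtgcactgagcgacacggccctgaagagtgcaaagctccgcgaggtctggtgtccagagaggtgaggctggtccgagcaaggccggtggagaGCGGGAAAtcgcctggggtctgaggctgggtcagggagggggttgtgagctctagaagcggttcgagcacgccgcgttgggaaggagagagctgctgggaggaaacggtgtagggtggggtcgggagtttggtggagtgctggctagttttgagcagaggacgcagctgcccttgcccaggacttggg
Uhrf1, chr17:56304063-56304362, plus strand: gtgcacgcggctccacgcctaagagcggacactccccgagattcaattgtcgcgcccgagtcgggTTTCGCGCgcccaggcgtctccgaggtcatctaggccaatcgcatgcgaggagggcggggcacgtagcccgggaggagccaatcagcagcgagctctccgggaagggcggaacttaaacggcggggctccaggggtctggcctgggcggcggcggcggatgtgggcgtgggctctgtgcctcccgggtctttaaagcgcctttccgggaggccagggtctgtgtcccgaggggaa
E2f2, chr4:136172024-136172323, plus strand: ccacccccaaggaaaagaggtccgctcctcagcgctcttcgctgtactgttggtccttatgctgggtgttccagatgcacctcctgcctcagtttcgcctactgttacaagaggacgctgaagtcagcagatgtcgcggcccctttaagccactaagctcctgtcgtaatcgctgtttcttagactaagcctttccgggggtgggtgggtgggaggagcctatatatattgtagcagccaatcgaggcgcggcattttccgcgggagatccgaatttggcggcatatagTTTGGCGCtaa
The words searched were TTTCCCGC, TTTCGCGC, TTTGGCGC and TTTGCCGC on both strands, and overlapping words, as in Mcm5 and Mcm6, were counted at each start. At least 1 of these words stood in the windows of 16 of the 38 members that had a window (42.1%), against 704 of 27025 genes (2.60%). Among members that rose between 4 h and 14 h of ConA the share was 11 of 26 (42.3%), and among the remaining members with a window it was 5 of 12 (41.7%). The CCAAT box, CCAAT on either strand, stood in 24 of 38 members (63.2%) against 41.1% of all genes, and the palindrome CACGTG, an E-box, in 7 of 38 (18.4%) against 8.09%. Such matches describe the letters of these windows and are not measured binding sites.

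Across the 5 groups the members did not move as one. Of the 40 tested, 18 had their highest group mean in T cells after 14 h of ConA, 11 in resting B cells, 7 in B cells with LPS, 4 in untreated T cells and 0 after 4 h of ConA. The lowest group mean was that of T cells at 4 h for 13 members, of LPS-treated B cells for 13, of untreated T cells for 10, of untreated B cells for 4 and of T cells at 14 h for 0. The gap between the highest and the lowest group mean had a median of 1.36 (log2), exceeded 2 in 9 members and stayed under 0.6 in 4.

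**Figure D1:**
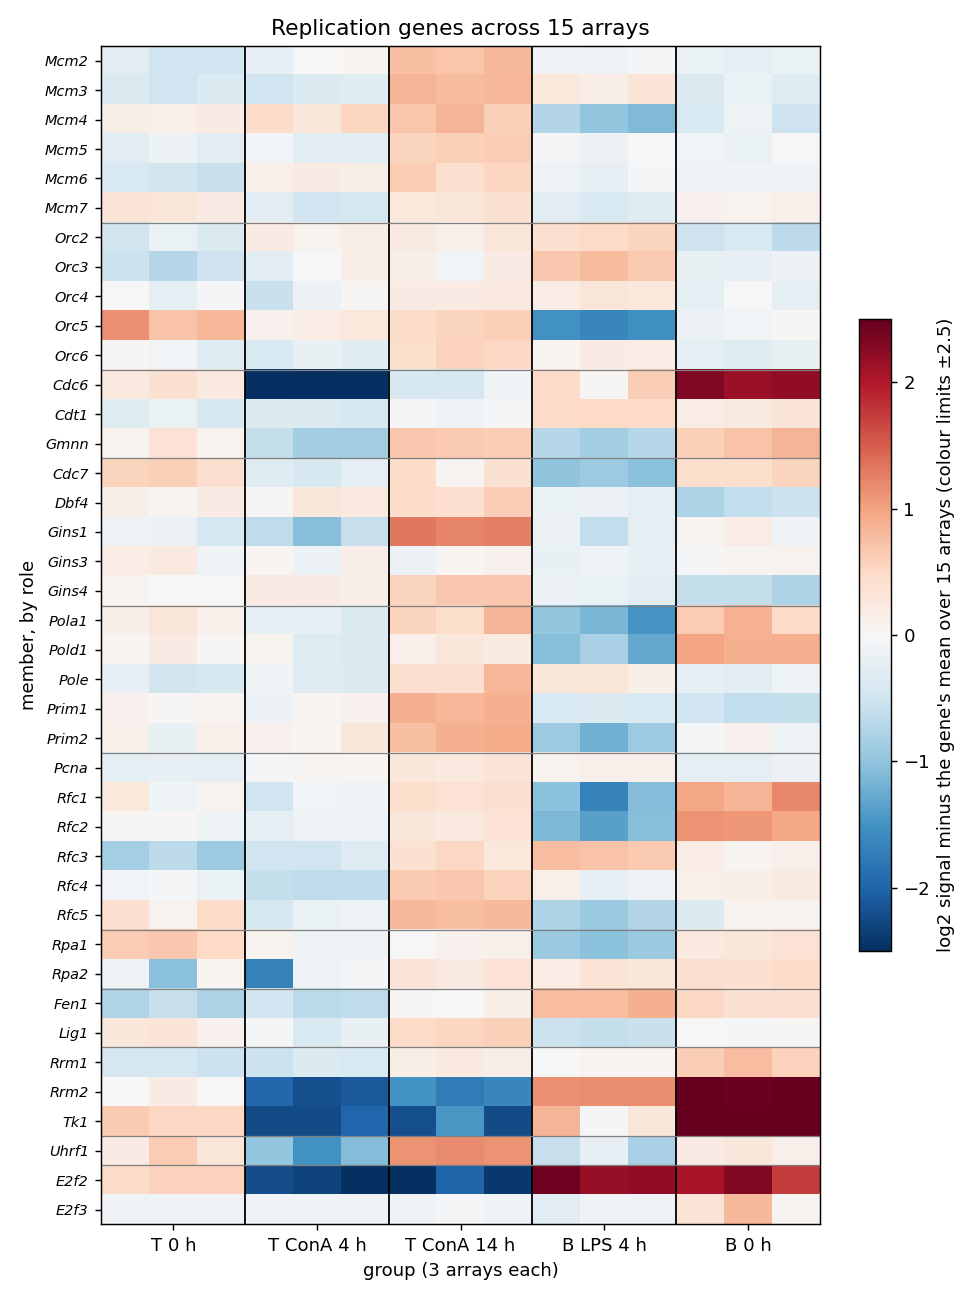
Log2 signal of the 40 tested members (rows, ordered by role) on 15 arrays (columns, 3 per group), shown as the difference from the mean of each gene over all arrays, with the colour scale limited to 2.5 in either direction. The T ConA 14 h columns are mostly above the gene means, whereas Cdc6, Rrm2, Tk1 and E2f2 are below theirs at 4 h and 14 h of ConA and high in B cells at 0 h.

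Between 4 h and 14 h of ConA most of the replication genes rose. Of the 40 tested members, 32 rose and 0 fell at an adjusted p under 0.05 (limma, Benjamini-Hochberg over 9044 genes), that is 80% of members against 27.4% of all tested genes that rose and 21.5% that fell. The median change of the members was 0.62 (log2), against 0.024 over all tested genes, and 7 members rose at least 2-fold. Because the list was chosen with earlier results of these data known, these shares describe it and are no independent test. The 8 that did not pass were Mcm4, Orc2, Orc3, Gins3, Rpa1, Tk1, E2f2 and E2f3, with changes of -0.02 to 0.28. Markers of other cells changed on the same arrays. The summed linear signal of the macrophage, monocyte and neutrophil list was 389 to 531 at 0 h, 1499 to 2085 at 4 h and 116 to 144 at 14 h of ConA, with 0 of 7 tested markers rising and 3 falling in the late step, led by S100a9 (-6.0 ± 0.20) and S100a8 (-5.52 ± 0.19), while the T cell group means were 2.26 to 2.71 for Csf1r and 5.68 to 7.16 for Lyz2, and Fcgr1 and Itgam lay at the floor of 2.24. Of 9 B cell markers 0 rose and 3 fell, with Cr2 at -3.79 ± 0.18. In the first 4 h 4 of them had risen and 1 had fallen, with Cr2 at 3.23 ± 0.18. Cd79a and Pax5 had T cell group means of 2.34 and 2.24 at 0, 4 and 14 h alike. The part of these cells in the changes of the replication genes was not tested. In bulk samples a smaller share of cells that express a gene and less of its RNA per cell cannot be told apart, and this holds for every change below.

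**Figure D2:**
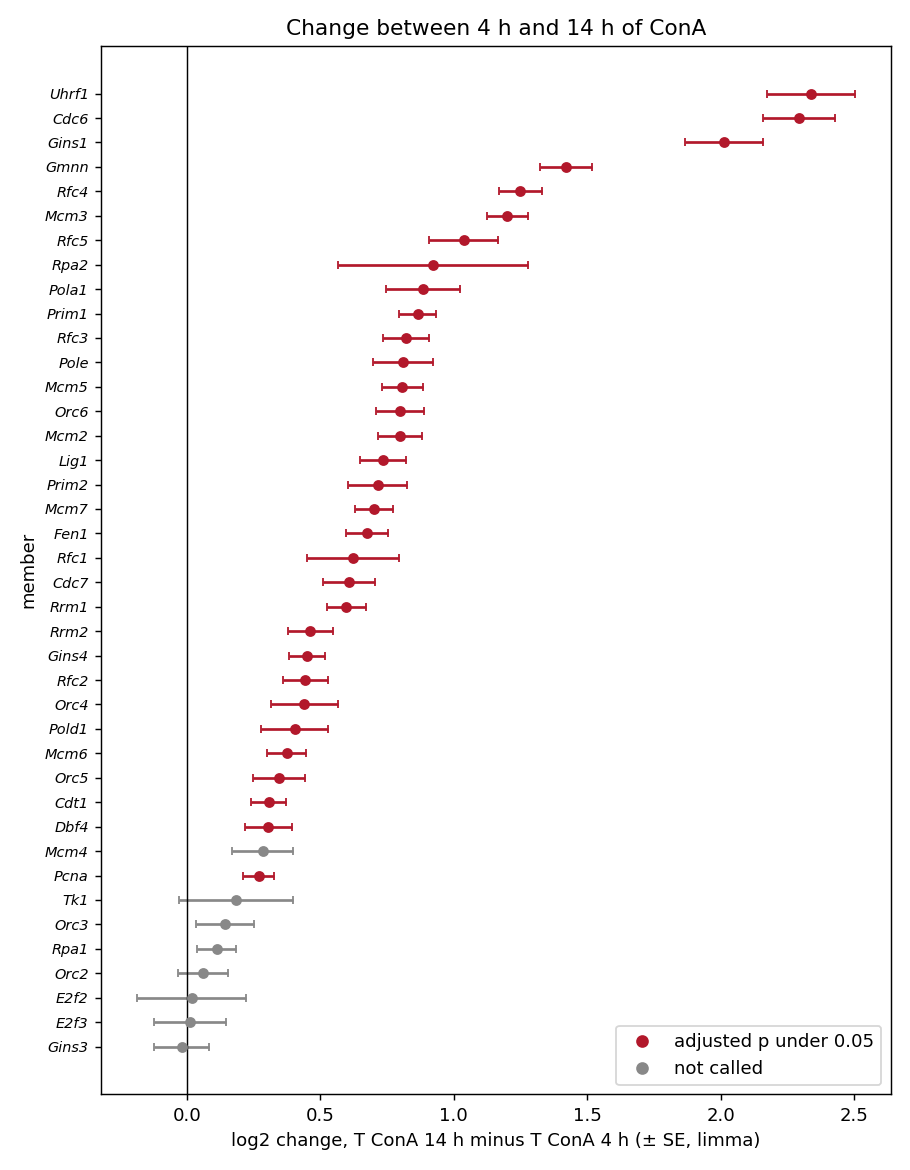
Change of each tested member between 4 h and 14 h of ConA (log2, T ConA 14 h minus T ConA 4 h, with the limma standard error), sorted by size, in red where the adjusted p was under 0.05. The changes run from -0.02 in Gins3 to 2.34 in Uhrf1, and the 8 grey points include Mcm4 at 0.28.

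Of the MCM2-7 helicase genes, 5 of 6 rose between 4 h and 14 h, with a median change of 0.75 (log2) over the 6. Mcm3 had log2 signals of 9.64, 9.51 and 9.67 in T cells at the start (0 h), 9.52, 9.66 and 9.70 at 4 h and 10.85, 10.80 and 10.83 at 14 h. Its arrays at 14 h stood above all T cell arrays at 0 h and 4 h, which overlapped with each other, and the rise from the 4 h level was 2.30-fold (log2 change 1.2 ± 0.08 SE, adjusted p = 5.58e-08, limma). Mcm5 behaved likewise, at 11.21, 11.35 and 11.22 at 0 h, 11.43, 11.21 and 11.21 at 4 h and 12.06, 12.10 and 12.11 at 14 h, a late change of 0.81 ± 0.08. Mcm6 instead rose at both steps, with 10.63, 10.54 and 10.44 at 0 h, 11.12, 11.20 and 11.15 at 4 h and 11.64, 11.42 and 11.53 at 14 h. Its changes were 0.62 ± 0.07 for the first step (adjusted p = 4.05e-06, limma) and 0.37 ± 0.07 for the second (adjusted p = 0.000759, limma), and the arrays of the 3 times did not overlap. Mcm2 also rose at both steps, by 0.38 ± 0.08 and 0.80 ± 0.08. Mcm7 fell first, by 0.66 on the log2 scale, and then rose by 0.70 ± 0.07, so that its mean at 14 h differed from that at 0 h by 0.04 ± 0.07. Of its 3 other probe sets, which also fell and then rose, 2 were called higher at 14 h than at 0 h, by 0.75 ± 0.07 and 0.49 ± 0.06. Mcm4 passed at neither step, with changes of 0.27 ± 0.12 and 0.28 ± 0.12, but it passed over the whole 14 h (0.55 ± 0.12, adjusted p = 0.000811, limma). Its other probe set passed at both steps (0.40 ± 0.09 and 0.49 ± 0.09, adjusted p = 0.00137 and 0.000498, limma, over probe sets), so the missing calls depend on the probe set.

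The origin recognition complex, which marks origins, changed less. Of its 5 tested genes, 3 rose between 4 h and 14 h: Orc6 by 0.80 ± 0.09, Orc4 by 0.44 ± 0.12 and Orc5 by 0.35 ± 0.10 (log2). Orc2 and Orc3 had risen by 4 h, with changes of 0.47 ± 0.09 and 0.54 ± 0.11. On their brightest probe sets they then changed by 0.06 ± 0.09 and 0.14 ± 0.11, which did not pass. A dimmer probe set of Orc3 did pass in the late step, at 0.28 ± 0.06 (adjusted p = 0.00208, limma, over probe sets). The Orc4 rise belongs to 1 of its 4 probe sets: another, dimmer one changed by -0.31 ± 0.10 in the same comparison (adjusted p = 0.027, limma, over probe sets), so the direction for Orc4 depends on the probe set. Orc1 was not tested, at 2.58 to 3.50 on the 15 arrays, with the 3 highest values in B cells with LPS.

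All 3 genes of helicase loading and its inhibitor rose late, and Cdc6 and Gmnn had fallen first. Cdc6, which with Cdt1 loads the helicase, had 6.54, 6.67 and 6.54 in T cells at the start (0 h), 3.54, 3.78 and 3.75 at 4 h and 5.89, 5.87 and 6.20 at 14 h. The 4 h arrays stood far below all others and the 14 h arrays just below those at 0 h. The fall to 4 h was 7.42-fold (log2 change -2.89 ± 0.14, adjusted p = 4.05e-10, limma) and the late rise 4.90-fold (2.29 ± 0.14, adjusted p = 2.62e-08, limma). Gmnn, whose product blocks reloading, had 8.72, 8.99 and 8.72 at 0 h, 8.02, 7.76 and 7.75 at 4 h and 9.29, 9.27 and 9.23 at 14 h, with no overlap between the times. Its late rise was 2.68-fold (1.42 ± 0.10, adjusted p = 1.05e-07, limma). Cdt1, the partner of Cdc6, moved little, with changes of -0.08 ± 0.07 to 4 h, which did not pass, and 0.31 ± 0.07 from 4 h to 14 h.

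Among genes of origin firing, 4 of 5 tested rose late. Gins1, a subunit of the GINS complex, had 6.48, 6.46 and 6.17 in T cells at the start (0 h), 5.98, 5.55 and 6.03 at 4 h and 7.92, 7.82 and 7.86 at 14 h. All 14 h arrays exceeded those of the other times, and the late rise was 4.03-fold (log2 change 2.01 ± 0.15, adjusted p = 1.73e-07, limma). Gins4 rose by 0.45 ± 0.07, while Gins3 changed by -0.02 ± 0.10. The kinase gene Cdc7 fell by 0.83 on the log2 scale and then rose by 0.61 ± 0.10, and the gene of its activator Dbf4 passed at the second step only (0.04 ± 0.09, then 0.31 ± 0.09, or 0.25 without T ConA 14 h replicate 3, which did not pass).

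The remaining genes of this role were dim. Gins2 was not tested, since its brighter probe set peaked at a group mean of 4.79, yet it had 4.58, 4.70 and 5.09 in T cells at 14 h and 3.25 to 3.32 on the 12 other arrays. The group means of its second probe set were 2.71, 2.70 and 5.08 in T cells at 0, 4 and 14 h, and 2.71 with LPS against 2.76 in untreated B cells, and since either probe set is high in 1 group alone, the values are given without a test. Cdc45 read 4.64 on 11 of 15 arrays and Mcm10 lay between 2.40 and 4.53, and nothing is read from either.

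All 5 polymerase and primase genes rose between 4 h and 14 h, with a median change of 0.81 (log2). Prim1, the catalytic primase subunit, had 9.31, 9.23 and 9.27 in T cells at the start (0 h), 9.06, 9.27 and 9.31 at 4 h and 10.10, 10.04 and 10.10 at 14 h. The arrays of 0 h and 4 h overlapped, those of 14 h stood above them, and the late change was 0.87 ± 0.07 (adjusted p = 4.2e-07, limma). Prim2, its partner subunit, rose by 0.71 ± 0.11, Pola1, the catalytic subunit of the polymerase that works with primase, by 0.89 ± 0.14, and Pole, of the leading-strand polymerase, by 0.81 ± 0.11. Pold1, of the lagging-strand polymerase, rose by 0.41 ± 0.12 (adjusted p = 0.0164, limma), a call that was lost without T ConA 4 h replicate 2 or 3 or T ConA 14 h replicate 2, with values of 0.33 to 0.37.

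All 6 genes of the sliding clamp and its loader rose as well. Pcna, the clamp, had 13.16, 13.17 and 13.16 at 0 h, 13.32, 13.44 and 13.42 at 4 h and 13.66, 13.62 and 13.70 at 14 h, and its late rise was 1.2-fold (0.27 ± 0.06, adjusted p = 0.00151, limma). The arrays did not overlap between the times, although the whole range is narrow. Of the clamp loader genes, Rfc4 rose most, at 9.18, 9.20 and 9.09 at 0 h, 8.66, 8.61 and 8.62 at 4 h and 9.91, 9.92 and 9.82 at 14 h. Its late change was 1.25 ± 0.08, beside 1.04 ± 0.13 for Rfc5, 0.82 ± 0.09 for Rfc3, 0.62 ± 0.17 for Rfc1 and 0.45 ± 0.08 for Rfc2.

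Of the genes that protect and join the new strands, Fen1, which trims Okazaki fragments, rose by 0.67 ± 0.08 and Lig1, which seals them, by 0.73 ± 0.09 (log2). Rpa1, the large subunit of the protein that coats single strands, fell by 4 h (-0.64 ± 0.07, adjusted p = 3.75e-06, limma). It changed by 0.11 ± 0.07 afterwards, which did not pass. Its dimmer probe set had T cell means of 10.69, 10.02 and 10.36 at 0, 4 and 14 h. With the mean of its probe sets, Rpa1 was called as a late rise. Rpa2, its partner, had 8.88, 7.96 and 9.07 at 0 h, 7.32, 8.89 and 8.97 at 4 h and 9.34, 9.23 and 9.38 at 14 h. Its low values are those of the arrays with the weak spike-in, and its late change of 0.92 ± 0.36 (adjusted p = 0.0461, limma) became 0.39, which did not pass, without T ConA 4 h replicate 1. The call was also lost without any 1 of the 14 h arrays, with values of 0.89 to 0.97. It was kept, at 0.39, without both arrays with the weak spike-in, and the second probe set of Rpa2 rose by 0.46 ± 0.12 (adjusted p = 0.00695, limma, over probe sets).

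Uhrf1 encodes the protein that brings the maintenance methyltransferase to newly copied DNA, and it showed the largest late change of the 40. Its signals were 8.19, 8.63 and 8.29 in T cells at the start (0 h), 7.03, 6.47 and 6.90 at 4 h and 9.12, 9.18 and 9.12 at 14 h, without overlap between the times. The fall was 2.96-fold (log2 change -1.57 ± 0.16, adjusted p = 1.42e-06, limma) and the late rise 5.05-fold (2.34 ± 0.16, adjusted p = 1.16e-07, limma).

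Genes of deoxynucleotide supply and E2F did not all share this course. Rrm1, the large subunit of ribonucleotide reductase, rose late by 0.60 ± 0.07, whereas Rrm2, the small subunit, which limits the enzyme in S phase, had 8.79, 9.0 and 8.79 at 0 h, 6.83, 6.58 and 6.68 at 4 h and 7.29, 7.04 and 7.15 at 14 h. Both later times lay well below 0 h without overlap, with a late change of 0.46 ± 0.08 (adjusted p = 0.000514, limma) that left Rrm2 3.25-fold below its 0 h level. Tk1, the salvage kinase for thymidine, had 5.48, 5.34 and 5.35 at 0 h, 2.59, 2.59 and 2.85 at 4 h and 2.64, 3.37 and 2.59 at 14 h. The later arrays lie at or near the lowest value of this probe set, 2.59, so the fitted fall of 6.54-fold by 4 h (adjusted p = 8.29e-08, limma) may understate the true one. E2f2, an activator of S phase genes, had 7.01, 7.11 and 7.11 at 0 h, 4.31, 4.21 and 3.73 at 4 h and 3.67, 4.53 and 4.12 at 14 h. The later times overlap with each other and lie far below 0 h, 7.97-fold at 4 h (adjusted p = 1.75e-08, limma), and the late change of 0.02 ± 0.20 did not pass. E2f3 read 5.54 on 10 of 15 arrays, and E2f1 and Tyms were not tested, at 2.99 to 3.31 and 2.38 to 5.15.

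**Figure D3:**
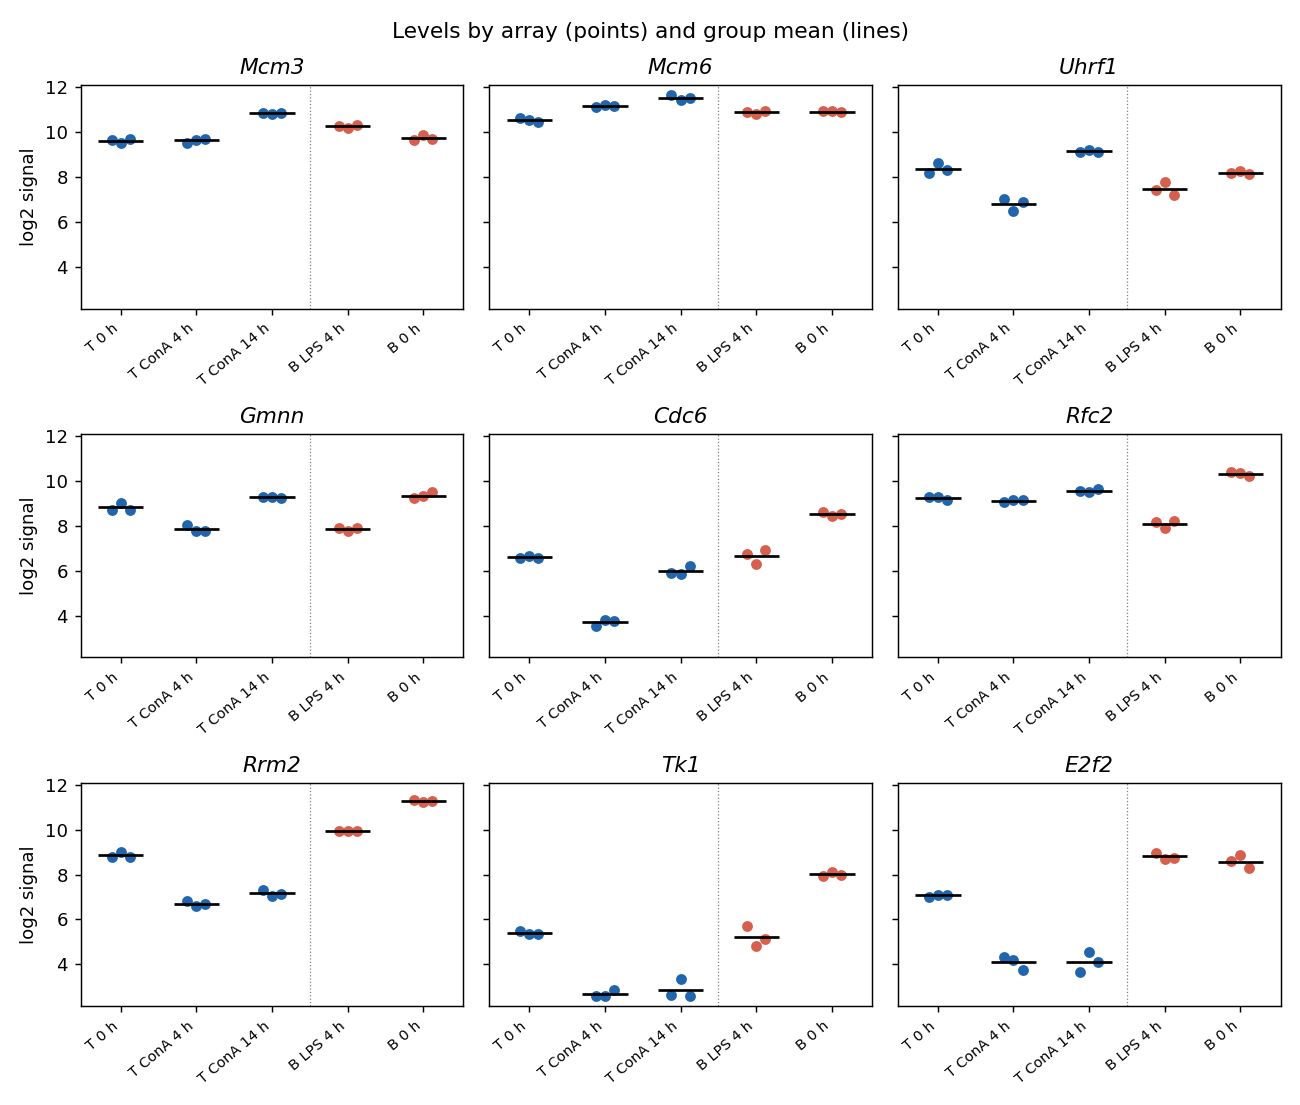
Log2 signal of 9 members in the 5 groups, one point per array and a line at each group mean, with T cells in blue and B cells in red. Mcm3, Mcm6, Uhrf1, Gmnn and Cdc6 are higher at 14 h than at 4 h of ConA, Rfc2 is lowest in B cells with LPS, and Rrm2, Tk1 and E2f2 remain below their 0 h level in T cells.

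The first 4 h of ConA were a step of mixed or falling levels. Here 6 members rose and 16 fell, 15% and 40% of the 40 tested, against 33.4% and 32.5% of all tested genes, and the median change was -0.13 (log2) against 0.002. The 5 falls of at least 2-fold were those of Cdc6, Rrm2, Tk1, Uhrf1 and E2f2. Both comparisons use the 4 h arrays, so a low 4 h array lowers the first change and raises the second. The joint counts of the 2 steps were made for members only and have no share of all genes beside them. On the brightest probe sets, 13 of the 40 members fell and then rose. These were Mcm7, Orc5, Cdc6, Gmnn, Cdc7, Gins1, Pola1, Pold1, Rfc4, Rfc5, Lig1, Rrm2 and Uhrf1. A further 15 passed at the second step only, and 4 rose at both (Mcm2, Mcm6, Pcna and Rfc3). At the first step only, 2 rose (Orc2 and Orc3) and 3 fell (Rpa1, Tk1 and E2f2). The 3 that passed at neither were Mcm4, Gins3 and E2f3. With the mean of all probe sets, Mcm4, Orc3 and Rpa1 were called as rises in the late step and Orc4 lost its call. The first fall of Pold1 (-0.30 ± 0.12) did not pass when any 1 of the 3 arrays at 0 h was left out. Nor did it without T ConA 4 h replicate 2 or 3, and the values were -0.33 to -0.22. The dimmer probe set of Pold1 had T cell means of 6.67 at 0 h and 6.68 at 4 h. The first fall of Pola1 (-0.45 ± 0.14) did not pass without both arrays with the weak spike-in.

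Over the whole 14 h, 27 members rose and 6 fell, 67.5% and 15% against 36.6% and 31.9% of all tested genes, with a median change of 0.49 (log2) against 0.03. The largest net rises were Gins1 with 1.5 ± 0.15, Mcm3 with 1.23 ± 0.08, Rfc3 with 1.19 ± 0.09 and Mcm2 with 1.18 ± 0.08, which are the 4 that rose at least 2-fold. The 6 that fell were E2f2 (-2.98 ± 0.20), Tk1 (-2.52 ± 0.21), Rrm2 (-1.70 ± 0.08), Cdc6 (-0.60 ± 0.14), Rpa1 (-0.53 ± 0.07) and Orc5 (-0.36 ± 0.10). Calls near the threshold were Orc4 at 0.30 ± 0.12 (adjusted p = 0.0457, limma), lost without any 1 array of either time (0.23 to 0.34), and Pola1 at 0.44 ± 0.14, which was 0.32 and did not pass without T ConA 14 h replicate 3.

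Genes with related roles that are not members were counted in the same comparisons. Of 33 other replication genes tested, among them Hells (1.83 ± 0.10), Dna2 (1.58 ± 0.38) and Wdhd1 (1.25 ± 0.14), 23 rose and 2 fell between 4 h and 14 h of ConA, with a median of 0.62 (log2), and 6 rose and 17 fell in the first 4 h. Of 17 G1 cyclins and regulators, 11 rose and 3 fell in the late step, led by Ccne1, the cyclin that starts S phase (1.53 ± 0.26), and the inhibitor gene Cdkn2d (1.28 ± 0.07). Neither ended above its start: the means at 0, 4 and 14 h were 5.95, 4.36 and 5.88 for Ccne1 and 10.18, 7.84 and 9.13 for Cdkn2d. Over the whole 14 h 7 of this list rose and 7 fell. In the late step, of 12 tested genes of the E2F and pocket protein network, 3 rose, namely Tfdp1, Rbl1 and Lin37, and 2 fell. Of all tested genes 27.4% rose and 21.5% fell in that step. Mitosis genes did not follow: 3 of 20 rose and 7 fell, with Mki67 at -1.46 ± 0.10 and Ccnb2 at -1.28 ± 0.10. Their summed linear signal was 3658 to 4085 at 0 h, 2006 to 2154 at 4 h and 1881 to 2022 at 14 h, beside the erythroid sums given above for the same times. Of the 14 tested erythroid markers 12 fell and 0 rose in the first 4 h of ConA. The part of erythroid RNA in the falls of Cdc6, Rrm2, Tk1 and E2f2 was not tested.

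**Figure D4:**
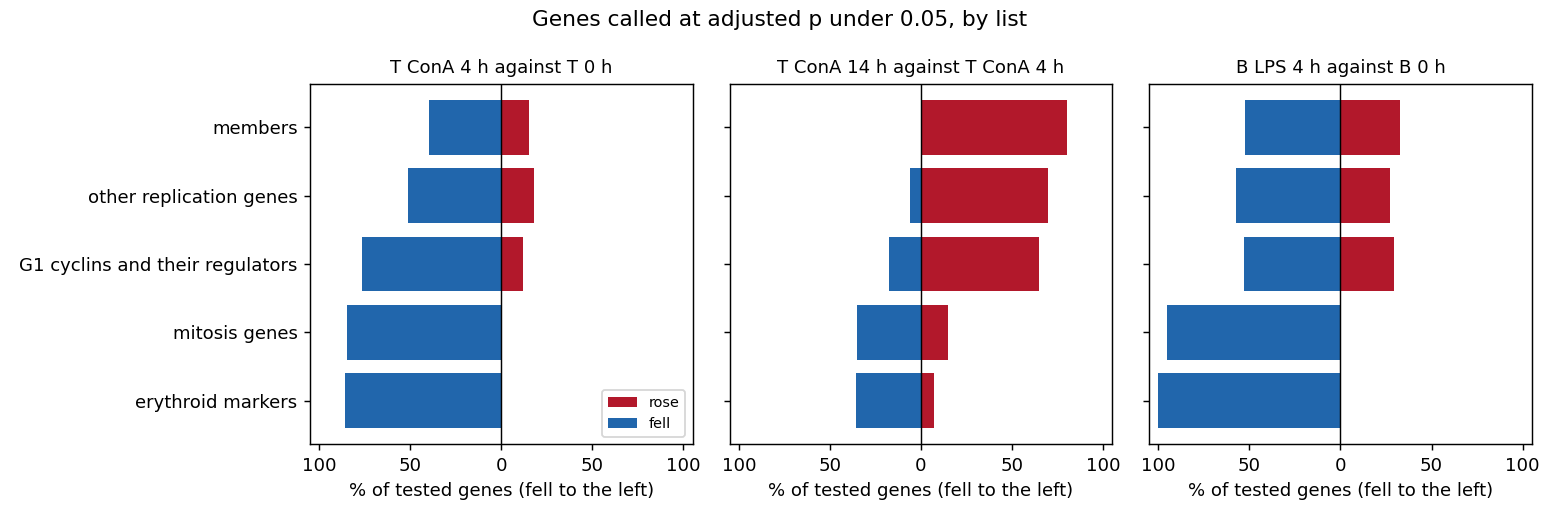
Share of tested genes called in 5 lists (members, other replication genes, G1 cyclins and their regulators, mitosis genes, erythroid markers), with rises to the right and falls to the left, in 3 comparisons. Members rose in 80% of cases between 4 h and 14 h of ConA, whereas 14 of 14 erythroid markers and 19 of 20 mitosis genes fell with LPS.

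In B cells more members fell than rose with LPS, and so did all tested genes, by a smaller margin. After 4 h of LPS 13 members rose and 21 fell, 32.5% and 52.5% of the 40 tested, against 37.6% and 42.3% of all tested genes, with a median change of -0.31 (log2) against -0.049. On the brightest probe sets the falls included 11 of at least 2-fold, and 0 rises reached that size, though other probe sets of Orc2 and Orc4 did. No share of such large changes was counted over all genes. Falls of any size were spread over the roles: 4 of 6 genes of the clamp and its loader, 3 of 5 of the polymerases and primase and 3 of 3 of deoxynucleotide supply fell, while 4 of 5 genes of the origin recognition complex rose.

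Rfc2, a small subunit of the clamp loader, had 8.15, 7.90 and 8.20 in B cells with LPS, against 10.39, 10.34 and 10.23 in B cells at 0 h. The groups stand apart by more than 2, and the fall was 4.71-fold (log2 change -2.24 ± 0.08, adjusted p = 1.01e-11, limma). Rfc1, the large subunit, had 7.37, 6.70 and 7.31 with LPS, against 9.35, 9.25 and 9.59 at 0 h, a 4.82-fold fall (adjusted p = 2.06e-08, limma). Rfc3, by contrast, had 9.34, 9.29 and 9.23 with LPS, against 8.76, 8.63 and 8.70 at 0 h, without overlap, and rose by 0.59 ± 0.09, so genes of one complex moved in opposite directions. Pold1 had 8.07, 8.34 and 7.87 with LPS, against 10.13, 10.03 and 10.06 at 0 h (-1.98 ± 0.12), and Pola1 5.48, 5.31 and 4.97, against 7.09, 7.32 and 6.94 (-1.87 ± 0.14). In both genes every LPS array lay below every 0 h array.

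Genes of licensing and of the origin-firing kinase moved both ways: Gmnn, Cdc6 and Cdc7 fell, while Cdt1 (0.24 ± 0.07, adjusted p = 0.00414, limma) and Dbf4 (0.47 ± 0.09, adjusted p = 0.000175, limma) rose. Gmnn had 7.91, 7.76 and 7.91 in B cells with LPS, against 9.22, 9.33 and 9.48 at 0 h, a 2.79-fold fall (log2 change -1.48 ± 0.10, adjusted p = 4.65e-09, limma). Cdc6 had 6.76, 6.31 and 6.90 with LPS, against 8.61, 8.44 and 8.51 at 0 h (-1.87 ± 0.14). The arrays of these genes did not overlap between the groups. Cdc7 fell by 1.46 on the log2 scale and Rpa1 by 1.26. Tk1 fell most of all members, to 5.69, 4.81 and 5.12 with LPS, against 7.93, 8.13 and 7.98 at 0 h, and Rrm2 had 9.93, 9.95 and 9.94, against 11.30, 11.24 and 11.29.

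The genes that rose with LPS were led by the origin recognition complex. Orc2 had 8.59, 8.66 and 8.74 with LPS, against 7.67, 7.81 and 7.54 at 0 h, a 1.99-fold rise (0.99 ± 0.09, adjusted p = 1.85e-07, limma), and Orc3 9.62, 9.72 and 9.59, against 8.76, 8.74 and 8.79 (0.88 ± 0.11). Other probe sets of Orc2 rose more, by 1.98 ± 0.24 and 2.45 ± 0.25, so the size of its rise depends on the probe set. Orc4 and Orc6 rose by 0.41 ± 0.12 and 0.39 ± 0.09, whereas Orc5, of the same complex, had 7.04, 6.91 and 7.02 with LPS, against 8.40, 8.47 and 8.57 at 0 h (-1.49 ± 0.10). Of the helicase genes, on their brightest probe sets, Mcm3 rose (0.53 ± 0.08), Mcm4 and Mcm7 fell (-0.61 ± 0.12 and -0.42 ± 0.07), and Mcm2, Mcm5 and Mcm6 changed by 0.09 ± 0.08, 0.01 ± 0.08 and -0.03 ± 0.07, which did not pass. Dimmer probe sets of these 3 genes were called higher with LPS, by 0.63 ± 0.22, 0.53 ± 0.13 and 0.28 ± 0.09, so the calls depend on the probe set. The fall of Mcm7 passed on its brightest probe set only, and its other probe sets changed by -0.12 ± 0.07, -0.12 ± 0.06 and -0.27 ± 0.12. Calls near the threshold were Gins1 (-0.38 ± 0.15), which did not pass without B 0 h replicate 1 or 2 or B LPS 4 h replicate 2 (-0.37 to -0.24), Prim1 (0.19 ± 0.07), which did not without B 0 h replicate 2 or 3 or B LPS 4 h replicate 2 (0.16 to 0.18), and Rfc4 (-0.24 ± 0.08), at -0.17 without B LPS 4 h replicate 2. E2f3 passed downward, with 5.34, 5.54 and 5.54 with LPS, against 5.94, 6.44 and 5.69 at 0 h, and 5.54 is the value it repeats on most arrays.

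Markers of other cells, and mitosis genes, moved with LPS as well. Of the genes tested, 14 of 14 erythroid markers, 7 of 7 macrophage, monocyte and neutrophil markers and 19 of 20 mitosis genes fell, and 0 rose in these 3 lists. Of the B cell markers, 7 of 9 fell. The summed linear signal of the macrophage list was 351 to 395 with LPS, against 4422 to 4722 at 0 h. The part of other cells, and of dividing cells, in the falls of the replication genes was not tested.

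The difference between the early responses was tested as an interaction, the LPS change in B cells minus the ConA change in T cells at 4 h. It passed for 29 of 40 members, 15 upward and 14 downward, or 37.5% and 35% against 31.3% and 34.9% of all tested genes. Those shares are near the background. On the brightest probe sets the largest was E2f2, with 8.97, 8.71 and 8.74 in B cells with LPS, against 8.59, 8.85 and 8.28 in B cells at 0 h, a change of 0.23 ± 0.20 that did not pass and that overlaps between the groups. Beside its ConA change of -3.0 ± 0.20 this gave an interaction of 3.23 ± 0.29 (adjusted p = 3.05e-07, limma). The size depends on the probe set: a second, dimmer one of E2f2 fell with LPS (-0.96 ± 0.14, adjusted p = 2.38e-05, limma, over probe sets) and in the first 4 h of ConA (-1.89 ± 0.14), with an interaction of 0.93 ± 0.19. In the other direction stood Rfc2 with -2.11 ± 0.12, Rfc1 with -1.98 ± 0.24, Pold1 with -1.68 ± 0.18, Pola1 with -1.42 ± 0.20 and Prim2 with -1.10 ± 0.16. All 5 fell with LPS. On the brightest probe sets only Pola1 and Pold1 passed as falls in the first 4 h of ConA. The changes of Rfc2, Rfc1 and Prim2 were -0.13 ± 0.08, -0.29 ± 0.17 and 0.12 ± 0.11. This split depends on the probe set. The dimmer one of Pold1 had T cell means of 6.67 at 0 h and 6.68 at 4 h. Other probe sets of Rfc1 gave interactions of -2.21 ± 0.17 and -0.75 ± 0.41. The latter did not pass, and its T cell means were 7.91 at 0 h and 6.92 at 4 h. Cdc6 fell in both 4 h responses, more with ConA (interaction 1.03 ± 0.19), as did Rrm2 and Uhrf1. For Tk1, which fell in both, the difference was -0.10 ± 0.30 and did not pass. On the brightest probe sets, 15 members fell in both 4 h responses, 4 rose in both (Orc2, Orc3, Pcna and Rfc3), and 0 were called in opposite directions. These joint counts were made for members only, so whether they differ from those of all genes was not tested. No B cells were profiled at 14 h, so a later rise in B cells was not measured.

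**Figure D5:**
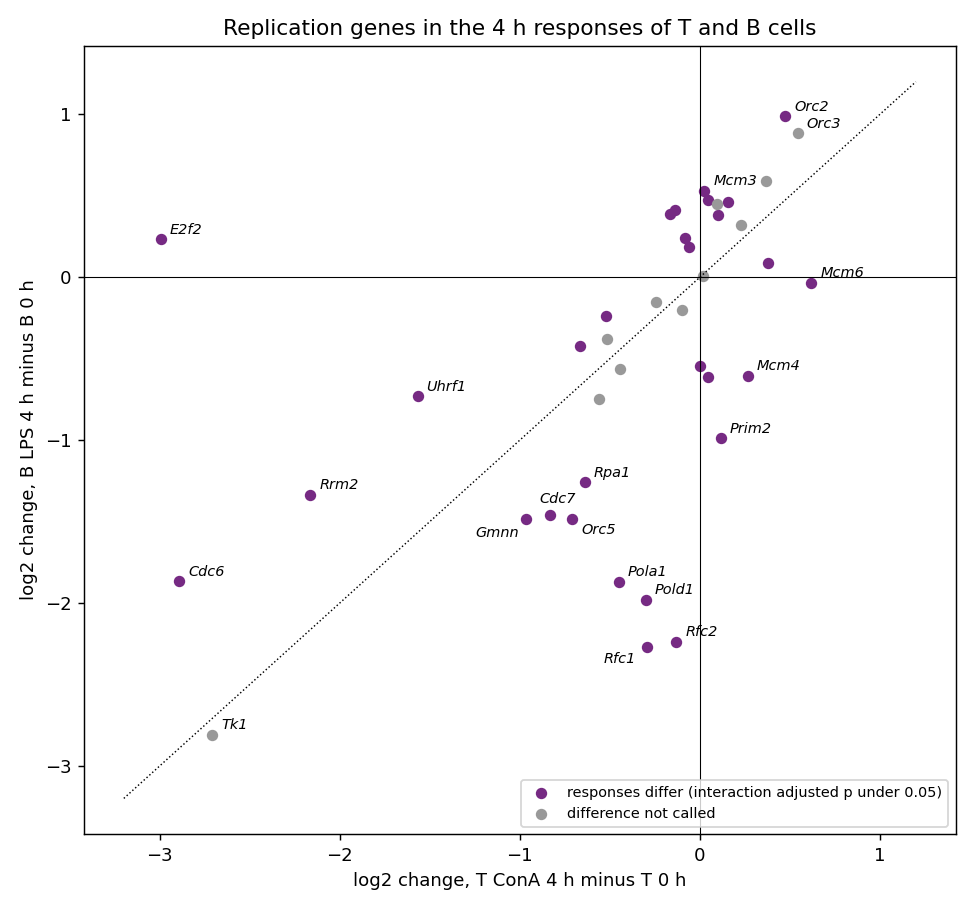
Change of each tested member after 4 h of LPS in B cells (vertical axis, log2) against its change after 4 h of ConA in T cells (horizontal axis, log2), with a dotted line of equal change and purple for members whose responses differed in the interaction test. E2f2 lies far above the line, and Rfc1, Rfc2, Pold1 and Pola1 far below it.

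Before stimulation, B and T cells already differed. At 0 h 18 members were higher and 9 lower in B cells than in T cells, 45% and 22.5% against 25.4% and 51.1% of all tested genes, with a median difference of 0.20 (log2) against -0.268. That all-gene median moved to -0.374 with array medians set equal and to -0.133 after cyclic loess, under which 23 members were higher and 5 lower, so small differences between the cell types depend on the scaling. The 7 members at least 2-fold higher in B cells included Tk1 (2.62 ± 0.21), Rrm2 (2.42 ± 0.08), Cdc6 (1.94 ± 0.14) and E2f2 (1.49 ± 0.20), followed by Fen1 (1.13 ± 0.08), Rrm1 (1.12 ± 0.07) and Rfc2 (1.08 ± 0.08). Orc5, Dbf4 and Gins4 led those lower in B cells (-0.96 ± 0.10, -0.80 ± 0.09 and -0.68 ± 0.07). Tk1, Rrm2, Cdc6 and E2f2 also had their lowest group means in ConA-treated T cells. Mitosis genes were higher in B cells too, 17 of 20 with 0 lower, and so were 12 of 14 erythroid markers. The part of dividing cells and of erythroid cells in the difference was not tested. Mcm2, Mcm6, Mcm7 and Orc4 have probe sets that were called in opposite directions here, so no direction is given for them between the cell types. The counts above use the brightest probe sets and so hold Mcm2 and Mcm6 as higher and Mcm7 as lower.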

How the data were processed

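The authors deposited log2 signals per probe set, which GCRMA had corrected for background and scaled across arrays, per the submitters' processing notes (tool version not given). The 15 columns hold 45101 probe sets, 64 of them controls. The floor of 2.24 holds 39.1% of values, and changes against it are understated. GCRMA also leaves some probe sets at one repeated value on most arrays.

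Probe sets listed with 1 gene symbol on the platform table (34958) were kept, the brightest per gene was used, and genes with a highest group mean of at least 5 were tested. The brightest probe set of 8 members is of the kind that can bind related transcripts (suffix x or s), and 36 members have several probe sets. A linear model with 1 mean per group was fitted to all 15 arrays (limma 3.58.1, R 4.3.3, functions lmFit and eBayes), with 10 residual and 3.16 prior degrees of freedom. Benjamini-Hochberg adjustment ran over 9044 genes per comparison, and calls were made under 0.05. Values with ± are log2 changes and standard errors of this fit, with 3 arrays per group. The number of arrays limits the precision.

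All 46 members were reported, and of each companion list up to 3 called genes with the largest change in the direction of the list's majority. Members and lists were chosen with earlier results of these data known. Replicate numbers do not pair the arrays: deviations of 30 same-numbered pairs from their group means correlated at -0.46 to 0.24, and 2 exceeded 0.1. The fit was tested on simulated data. Alternatives changed the filter, the probe sets per gene, the normalization, the arrays fitted, the variance prior, a block, a spike-in covariate and single arrays.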

Additional observations from a re-analysis of the deposited data

Results flagged for a closer look

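The following members were singled out because their LPS response in B cells differed from their ConA response in T cells at 4 h by a test of that difference (limma interaction, adjusted p under 0.05). Each value is the LPS change minus the ConA change on the log2 scale.

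E2f2 had the largest positive difference on the brightest probe sets, 3.23 ± 0.29, but its second probe set gave 0.93 ± 0.19. Cdc6, Uhrf1 and Rrm2 fell less with LPS than with ConA, with differences of 1.03 ± 0.19, 0.84 ± 0.23 and 0.83 ± 0.12. Of the origin recognition genes, Orc2 differed by 0.52, Orc4 by 0.55 and Orc6 by 0.55. Other probe sets of Orc2 gave 0.97 ± 0.34 and 2.17 ± 0.35. Further positive differences were 0.51 in Mcm3, 0.43 in Dbf4, 0.32 in Cdt1, 0.31 in Gins4, 0.28 in Rfc4 and Fen1, 0.25 in Prim1 and 0.24 in Mcm7.

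Among negative differences, the genes of the clamp loader and the polymerases came first, with -2.11 ± 0.12 in Rfc2, -1.98 ± 0.24 in Rfc1, -1.68 ± 0.18 in Pold1, -1.42 ± 0.20 in Pola1 and -1.10 ± 0.16 in Prim2. Smaller ones were -0.87 in Mcm4, -0.78 in Orc5, -0.66 in Rrm1, -0.65 in Mcm6, -0.63 in Cdc7, -0.62 in Rpa1, -0.55 in E2f3, -0.51 in Gmnn and -0.29 in Mcm2. E2f3 read one repeated value, 5.54, on 10 arrays, and B cells at 0 h, at 5.69 to 6.44, stood above it. The differences in Mcm2, Mcm7, Prim1, Rfc4, Fen1 and E2f3 lost their call in one or more fits that left out 1 array. Other probe sets of Rfc1 gave -2.21 ± 0.17 and -0.75 ± 0.41, and the latter did not pass.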

How the results depend on the processing

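Counts of called members were recomputed under each alternative listed with the methods. The counts between 4 h and 14 h of ConA ranged from 30 to 31 rises, with 0 falls, when 1 array was left out. They were 32 to 33 rises without a filter, with the mean of all probe sets, under both other scalings and with the spike-in covariate. Like totals can hold different members. Without a filter Rpa2 lost its call, and the 6 members not tested before, Gins2 among them, could be counted. With the mean of all probe sets Orc4 lost its call, and Mcm4, Orc3 and Rpa1 gained one. With 1 array left out, counts were 25 to 26 rises and 6 to 7 falls over 14 h, 6 to 7 and 15 to 16 for the first 4 h of ConA, 12 to 13 and 19 to 21 for LPS, 18 to 19 and 7 to 9 for B against T cells, and 11 to 15 and 12 to 14 for the interaction. More than 1.5-fold shifts were 10 rises in the first 4 h of ConA with the mean of all probe sets of a gene (6 reported), and 5 members lower in B cells at 0 h after cyclic loess (9 reported). With the mean of all probe sets, Orc4 changed by -0.03 in the late step and 0.34 in the first, E2f2 by -0.36 with LPS, and Mcm2, Mcm6 and Cdc7 differed between B and T cells by -0.43, -0.06 and 0.45, each against the reported direction, and the Mcm2 interaction was 0. After cyclic loess Mcm7 differed between B and T cells by 0.03. Averaging takes in dimmer probe sets, and the cause of the loess values was not tested.

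With the replicate number as a block, although the numbers do not pair the arrays (2 of 15 arrays correlated best with their own number), the counts were 32 rises and 0 falls in the late step, 27 and 6 over 14 h, 6 and 16 in the first 4 h, 13 and 21 for LPS, 18 and 8 for B against T cells and 11 and 13 for the interaction. Of the tests on single members under all alternatives, 127 lost the call and 63 gained one. A further 8 turned direction while called in the reported fit, the alternative or both. The other 3778 count as the same, and among these the direction of changes called in neither fit was not compared. Values at or near the lowest of its probe set, 2.59, bound how far down Tk1 could be followed.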

Other observations

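Among other replication genes with LPS, 9 of 33 tested rose and 19 fell, with a median change of -0.53 (log2). Of all tested genes 37.6% rose and 42.3% fell. Dna2, a nuclease of Okazaki fragment processing, changed by -3.68 ± 0.38, Pold4, a small subunit of polymerase delta, by -3.49 ± 0.11, and Dscc1, of an alternative clamp loader, by -2.07 ± 0.30, beside the falls of Rfc1, Rfc2 and Pold1 among the members. Pold2, another subunit of that polymerase, had means of 10.2 with LPS and 7.46 at 0 h (2.74 ± 0.08, limma adjusted p = 1.15e-12), so genes of 1 polymerase moved in opposite directions, and its interaction with cell type was 2.23 ± 0.12 (limma adjusted p = 1.39e-09).

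G1 regulators also differed between the early responses. Ccnd2, a D-type cyclin, had an interaction of 5.09 ± 0.11 and Cdk6, its kinase partner, of 2.47 ± 0.08 (log2, LPS change minus ConA change). In the E2F and pocket protein network, Rbl2, a repressor of E2F targets, fell with LPS (-4.01 ± 0.17) and in the first 4 h of ConA (-1.17 ± 0.17). With LPS 6 of 12 genes of this list fell and 4 rose, beside 42.3% and 37.6% of all tested genes.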
